A study of Mus musculus with 4 samples.

Results

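The comparison of permanent middle cerebral artery occlusion (PMCAO) with sham operation at 6 h rests on the 2 dye-swapped arrays of that time, out of 4 arrays in the series. Its members were chosen by the time in the labels, and every gene measured on the arrays was followed, with 19127 of 27670 named genes or transcripts tested. PMCAO is a mouse model of stroke in which a nylon filament is passed up the carotid artery until it blocks the middle cerebral artery. The sham mice had the neck vessels exposed and the wound closed. Both arms were male C57BL/6J mice of 8 to 12 weeks under isoflurane, both received saline into the cerebral ventricle, and groups of 3 mice were taken 6 h later. Anaesthesia, neck surgery and ventricular injection are therefore common to both channels. The description of the design names the hemisphere on the side away from the occlusion as the tissue hybridised, while the labels of the samples give only brain. How the RNA of 3 mice was combined is not stated, nor whether the arrays hold separate RNA, so a p-value measures only how far the arrays differ, and that spread may be technical.

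Within hours of a loss of blood flow, brain tissue is known to transcribe immediate early genes, which encode transcription factors such as Fos and need no new protein to be switched on. Waves of depolarisation spread from an infarct and drive such genes in neurons well beyond it. Heat shock proteins, chemokines that draw in leukocytes, and enzymes that remodel matrix follow, and the endothelium of the blood-brain barrier and the glia change their transcripts as well.

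By limma's moderated test with Benjamini-Hochberg adjustment at 0.05, 156 genes were higher in PMCAO than in sham, which is 0.816% of the genes tested, and 7 were lower, which is 0.0366%. At an unadjusted p below 0.05 the numbers were 1179 and 494 of the 19127 genes tested. Counts at that p within a list, given below, are to be read against these, as a few members would pass in any list. Sample number and dye orientation coincide at both times, and with that term in the fit as a replicate block the numbers were 1131 and 571, so the small count and the near absence of lower genes hold only with it left out. The calls and counts below come from the fit without it. The difference was at least 2-fold for 85 genes that rose and 2 that fell. Values below are log2(PMCAO / sham), and an error is the standard error of the model over n = 2 arrays. The model takes 1 spread per gene from the arrays of 6 h and 24 h together, so errors and p-values also reflect the 24 h arrays. The array difference divided by 2 had a median size of 0.06 at 6 h and 0.10 at 24 h. The median over all tested genes was -0.01, and 5% of genes lay below -0.21 and 5% above 0.29. In bulk tissue, fewer cells of a type and less RNA per cell cannot be told apart.

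The arrays carried opposite dyes, PMCAO in Cy5 on array 1 and in Cy3 on array 2. Both ratios of a gene were above 0 for 5421 genes (28.4% of the 19121 measured on both), both were below 0 for 5349 (28.0%), and the signs differed for 8351 (43.7%). A ratio of at least 1 on each array was found for 71 genes (0.371%), and 70 of them passed the test. No gene had a ratio of -1 or lower on both arrays, and none moved by 1 or more in opposite directions. All 156 higher and all 7 lower genes had both arrays on the same side of 0, which a test on these same arrays favours. The ratios of the arrays had a correlation of 0.582 over genes, and genes are no independent replicates. The share of spots well above background ranged from 67.27% to 70.49% over the channels.

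**Figure D1:**
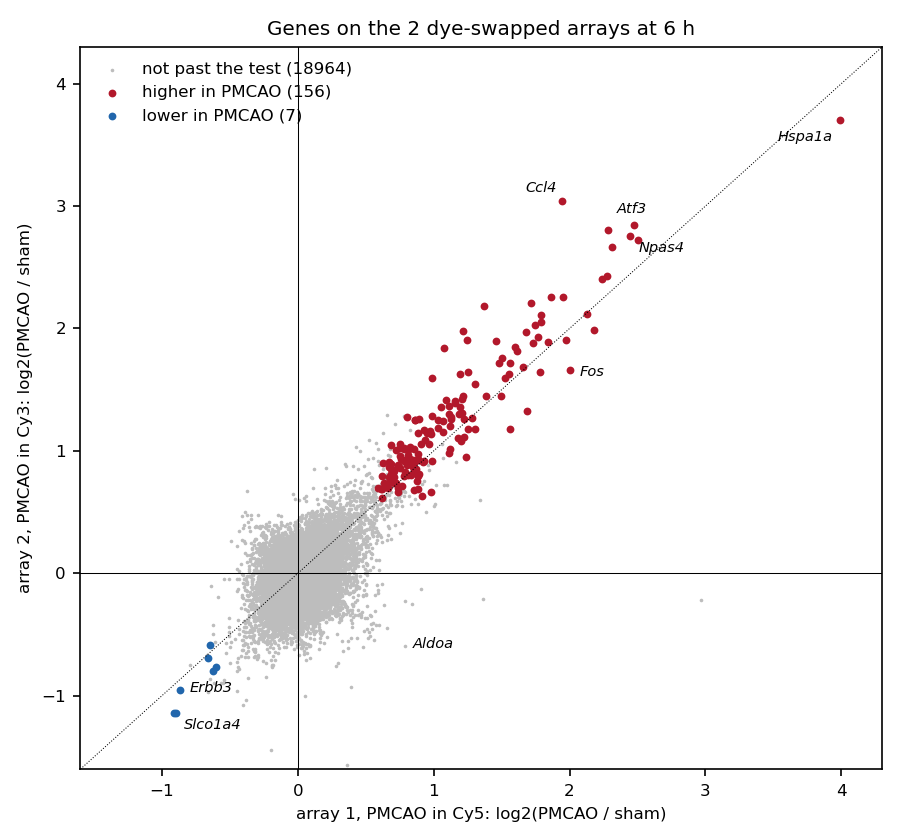
Each point is a gene, with its log2(PMCAO / sham) on array 1 on the x axis and on array 2 on the y axis; red points are the 156 genes higher in PMCAO, blue points the 7 lower genes and grey points the genes not past the test. The red points lie along the dotted line of equality, and Aldoa is a gene whose arrays differed in sign.

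The number of calls moved with the arrays that gave the estimate of spread. Without array 1 the test gave 103 higher and 6 lower genes, and without array 2 it gave 76 and 0 (463 and 34 with p unadjusted at 0.05). Leaving out either 24 h array gave 940 and 354, with 1 residual degree of freedom and 66.9 prior ones in place of 2 and 3.53. With each array centred on its median in place of loess it gave 0 and 0 (62 and 1 at an unadjusted p below 0.05), so each list count given below was then 0 too, though 43 genes still had a ratio of at least 1 on each array.

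AP-1 transcription factors and related leucine zipper proteins, which bind DNA as pairs, made up the list with the largest share of higher members. The related ones include small Maf and C/EBP factors, and all are called AP-1 members below for short. Of 17 tested, 10 were higher and 0 lower, with a list median of 0.79. Atf3, a stress-induced member, stood at 2.47 on array 1 and 2.84 on array 2 (mean 2.66 ± 0.13, 6.31-fold, adjusted p = 0.00388). Its probe lies on chromosome 1 at 190724174 to 190724233 (mm7). Maff, a small Maf protein, stood at 2.24 and 2.41 (2.32 ± 0.11). Fosb, a Fos family subunit, stood at 1.95 and 2.26 (2.10 ± 0.11), and Fos itself at 2.00 and 1.66 (1.83 ± 0.20, adjusted p = 0.0259). The ratios of Atf3, Maff and Fosb were higher on array 2 and that of Fos on array 1. Most of the 30 highest named genes had their larger ratio on array 2. The exceptions were Hspa1a, Tmem252, Depp1, Fos and Gjb2. The cause of this lean was not tested. The other higher members were the Fos subunit Fosl2 (1.04 ± 0.10), the Jun subunits Jun (0.89 ± 0.08) and Junb (0.74 ± 0.08), the small Maf protein Mafk (0.79 ± 0.09), and the C/EBP factors Cebpd (1.27 ± 0.10) and Cebpb (1.16 ± 0.09). Second probes gave 0.29 for Fosl2, 0.77 for Junb and 0.81 for Cebpb. The count of higher AP-1 members was 6 without array 1, 7 without array 2 and 12 without either 24 h array.

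Among the other immediate early transcription factors, 4 of 24 were higher and 0 lower. Npas4, which neurons switch on when calcium enters through synaptic activity, stood at 2.45 and 2.76 (2.60 ± 0.20, 6.07-fold, adjusted p = 0.0107). Egr4, a zinc finger factor, stood at 1.33 ± 0.09, Csrnp1 at 0.86 ± 0.09 and Klf4, a Krueppel-like factor, at 0.84 ± 0.09. Other probes of Csrnp1 gave 0.02 to 0.54. The better known Egr1 was at 0.51 and 0.23 (0.37 ± 0.11, adjusted p = 0.332) and Egr3 at 0.49 and 0.58 (adjusted p = 0.0786), so neither passed. Klf4 was also the 1 higher gene of 13 Krueppel-like factors, of which 0 passed without either 6 h array in turn and 4 without either 24 h array. Without array 1 the immediate early list had 2 higher members, and without either 24 h array 12.

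Genes that carry neuronal activity to the synapse were split. Of 21 effectors tested, 5 were higher and 0 lower. Ptgs2, the inducible cyclooxygenase, stood at 1.65 and 1.68 (1.67 ± 0.14, adjusted p = 0.0141), and its second probe gave 1.74. Nptx2, a secreted pentraxin that clusters glutamate receptors, stood at 1.59 ± 0.10, the neurotrophin Bdnf at 0.95 ± 0.09, the small GTPase Gem at 0.90 ± 0.10 and Inhba, a subunit of activin, at 0.86 ± 0.09. Arc, a cytoskeletal protein of active dendrites, lay on the other side of 0 on both arrays, at -0.35 and -0.22 (-0.28 ± 0.08, adjusted p = 0.365). The count of higher effectors was 3 without array 1, 2 without array 2 and 11 without either 24 h array. Markers that define neurons did not move with them: of 22 tested, 0 were higher and 0 lower (also 0 and 0 when p is left unadjusted at 0.05), the list median was 0.00, Neurod6 at -0.12 and -0.46 and Gria2 at -0.16 and -0.22 had the smallest p, and their summed processed signal was 385219 and 405108 in PMCAO against 389516 and 404879 in sham on arrays 1 and 2.

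A list of feedback inhibitors of MAP kinase and receptor signalling had 3 of 19 members higher and 0 lower. The EGF receptor inhibitor Errfi1 stood at 1.25 ± 0.11. The others were stress sensors that the list also held, Gadd45b (1.56 ± 0.09) and Gadd45g (1.43 ± 0.12), which are not such inhibitors as a class. The list's median was 0.46, and 11 members were higher at an unadjusted p below 0.05. Among Dusp phosphatases, which remove phosphate from MAP kinases, Dusp2 was at 0.84 and 0.57 (adjusted p = 0.0846) and Dusp14 at 0.57 and 0.51 (adjusted p = 0.0858). It had 10 higher members without either 24 h array.

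NF-kB is a transcription factor held in the cytoplasm by IkB proteins, and its targets include those inhibitors. Of 20 such genes, 5 were higher and 0 lower, with a median of 0.37. The mRNA-destabilising protein Zfp36 stood at 1.12 and 1.26 (1.19 ± 0.08), Nfkbia, which encodes IkB alpha, at 0.75 and 1.02 (0.89 ± 0.10), the apoptosis inhibitor Birc3 at 0.73 and 1.01 (0.87 ± 0.10), the adhesion molecule Icam1 at 0.81 and 0.89 (0.85 ± 0.09), and the nuclear IkB protein Nfkbiz at 0.68 and 0.74 (0.71 ± 0.09). Second probes were lower, at 0.42 for Zfp36, 0.10 for Birc3 and 0.25 for Icam1, and Nfkbia and Nfkbiz have 1 probe each. The count was 3 without array 1, 1 without array 2 and 11 without either 24 h array.

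The promoters of 115 of the 156 higher genes were in the RefSeq promoter table (GRCm38.p6), and the 250 bases before each start were read on both strands. The NF-kB site, searched by its consensus name, lay before 25 of the 115 genes (21.7%), against 10.7% of 12127 tested genes and 8.23% of all 27025 genes in the table. The AP-1 site TGANTCA lay before 18 (15.7%), against 5.97% and 7.82%. The cyclic AMP response element TGACGTCA lay before 5 (4.35%, against 2.84% and 1.77%), the core of the heat shock element, GAANNTTC, before 10 (8.7%, against 6.2% and 7.73%) and the CArG box, by its name, before 2 (1.74%, against 1.43% and 1.62%). The letters of the cyclic AMP response element do not hold the AP-1 site, and a gene with several matches of a motif was counted once. The table gave 1.33 start sites a gene for the higher genes, 1.27 for the tested and 1.22 for all, and a gene with more sites had more sequence to match. A match is a description of letters. The sequences below show 1 promoter with the AP-1 letters and a pair with the NF-kB site in capitals, each ending at the base before the start. Plaur lies at chr7:24462363-24462482 on the plus strand, Cxcl1 at chr5:90891125-90891244 on the plus strand and Nfkbia at chr12:55492648-55492767 on the minus strand.
Plaur: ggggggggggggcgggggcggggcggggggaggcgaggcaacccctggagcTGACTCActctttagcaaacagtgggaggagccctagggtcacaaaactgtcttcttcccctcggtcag
Cxcl1: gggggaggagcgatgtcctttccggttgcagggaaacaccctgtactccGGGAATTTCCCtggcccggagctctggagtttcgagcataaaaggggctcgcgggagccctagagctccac
Nfkbia: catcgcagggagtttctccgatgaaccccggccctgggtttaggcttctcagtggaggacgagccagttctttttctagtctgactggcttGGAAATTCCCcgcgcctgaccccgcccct

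Chemokines, the secreted proteins that guide leukocytes, had 6 of 22 tested members higher and 0 lower, with a median of 0.47. Ccl4, a macrophage inflammatory protein, stood at 1.95 and 3.05 (2.50 ± 0.25, adjusted p = 0.0210), and its arrays lay farthest apart among the 30 highest named genes. Ccl2, which attracts monocytes, stood at 2.32 and 2.67 (2.49 ± 0.15), and Ccl3, a related protein, at 1.72 and 2.21 (1.96 ± 0.14). Cxcl1, which attracts neutrophils and whose promoter is shown above, stood at 1.24 and 1.90 (1.57 ± 0.17, adjusted p = 0.0264). Ccl9 stood at 0.85 ± 0.11 and Ccl17 at 0.77 ± 0.10. Outside the lists, Ccl24, an eosinophil-attracting chemokine, stood at 1.06 ± 0.12, and the atypical receptor Ccrl2 at 0.77 ± 0.09. Cxcl12, a constitutive chemokine of vessels, was at -0.66 and -0.97 (-0.82 ± 0.13) and missed the threshold with an adjusted p of 0.0768. Of 9 chemokine receptors 0 were higher and 0 lower in limma (1 and 1 at an unadjusted p below 0.05). Cx3cr1, the fractalkine receptor, was at -0.42 and -0.67 (adjusted p = 0.107), and the scavenging receptor Ackr3 was at 0.49 and 0.46 (adjusted p = 0.160). The background offset draws the ratios of such dim spots towards 0: by the scanner software's processed signals Ccl4 stood at 4.15, Cxcl1 at 3.73, Ccl2 at 3.54 and Ccl3 at 2.92. The list had 13 higher members and 1 lower without either 24 h array.

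On the list of the interleukin 1 and TNF systems, 2 of 30 members were higher and 0 lower. Both belong to Toll-like receptor signalling, which the list also held, and neither encodes an interleukin 1 or TNF ligand or receptor. Cd14, the co-receptor that hands bacterial lipid to Toll-like receptors, stood at 2.29 and 2.81 (2.55 ± 0.14, 5.84-fold, adjusted p = 0.00505), and Tlr2, such a receptor, at 0.59 and 0.70 (0.64 ± 0.09). The cytokine Il1b was at 0.42 and 0.60 (adjusted p = 0.101). The lectin receptor Clec4d was at 0.78 and 1.28 (1.03 ± 0.14, adjusted p = 0.0519). The list's median was 0.19, with 14 members higher and 0 lower at an unadjusted p below 0.05. The count was 4 without array 1, 1 without array 2 and 13 without either 24 h array. The processed signals of the scanner software gave 10, raw signals without background correction 6, and an offset of 16 or a stricter filter on dim probes 1. In the interleukin 6 family, 3 of 20 were higher and 0 lower: Socs3, the feedback inhibitor of Stat3, stood at 1.48 and 1.72 (1.60 ± 0.09, adjusted p = 0.00567), the oncostatin M receptor Osmr at 1.05 ± 0.10, and Il4ra, which the list also held, at 0.90 ± 0.08. Osmr has a second probe at 0.15. Stat3 was at 0.55 and 0.62 with an adjusted p of 0.0555. The count was 1 without array 2 and 7 without either 24 h array.

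Some markers of neutrophils were higher beside these genes. Of 14 tested, 4 were higher and 0 lower, and 10 did not pass. The 4 were the calcium-binding proteins S100a9, at 2.50 and 2.73 (2.61 ± 0.10, adjusted p = 0.00388), and S100a8, at 1.79 and 2.06 (1.92 ± 0.10), the resistin-like protein Retnlg, at 1.37 and 2.18 (1.78 ± 0.20), and the siderophore-binding Lcn2 (1.24 ± 0.10). S100a8 and S100a9 pair into a protein abundant in neutrophils, and Lcn2 is also made by reactive astrocytes and endothelium. The granule gene Mpo, measured in all channels, was at 0.04 and -0.03. Cxcr2, Ltf, Mmp8, Ngp and Trem1 were not well above background in sham on either array, so no ratio is given for them. The summed processed signal of the 14 markers was 9750 and 10823 in PMCAO against 2113 and 2273 in sham, and S100a9 gave most of it, with 7029.9 and 8143.95 in PMCAO. Of 12 monocyte and macrophage markers 0 were higher and 0 lower in limma (4 and 0 at an unadjusted p below 0.05), and 9 of the 12 were well above background on both sham arrays, while Arg1, F10 and Msr1 were so on none and have no measured ratio. Plac8 was at 0.46 and 0.70 (adjusted p = 0.0826) and the platelet factor Pf4, also made by macrophages at brain borders, at 1.07 and 0.72 (adjusted p = 0.115). The part of infiltrating cells in the chemokine and cytokine values was not tested. Leaving out either 24 h array gave 7 higher neutrophil and 4 higher monocyte markers.

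Other myeloid transcripts were among the higher genes outside the lists. Cd300lf, an inhibitory receptor of myeloid cells, stood at 1.46 and 1.90 (1.68 ± 0.13) on its brighter probe, with its second probe at 0.12. Adam8, a membrane protease of leukocytes, stood at 0.86 ± 0.09, the receptor Pirb at 0.84 ± 0.09, the proteoglycan Srgn at 1.07 ± 0.10, Gpr65 at 0.76 ± 0.10, Blnk, an adaptor of B cell and myeloid receptors, at 0.98 ± 0.10, and Bcl2a1b, which has near-identical copies, at 0.81 ± 0.09. Apart from the myeloid transcripts, S100a5 was not well above background in sham on either array. Its arrays stood at 1.08 and 1.84 (adjusted p = 0.0407). The bound on its mean, 2.75-fold, equalled the ratio as measured, and array 1 alone lay below it. Microglial markers did not join the myeloid transcripts: 0 of 18 were higher and 0 lower in limma (0 and 5 at an unadjusted p below 0.05). Gpr34, a lysophospholipid receptor of microglia, was at -0.57 and -0.90 (adjusted p = 0.0969), while Csf1r was at 0.00 and Tmem119 at -0.01. Of 4 lymphocyte markers tested 0 passed, also at an unadjusted p below 0.05, with Cd4 at 0.02 and -0.14 and Nkg7 at 0.02 and -0.10. Microglial markers had 5 lower members without either 24 h array.

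**Figure D2:**
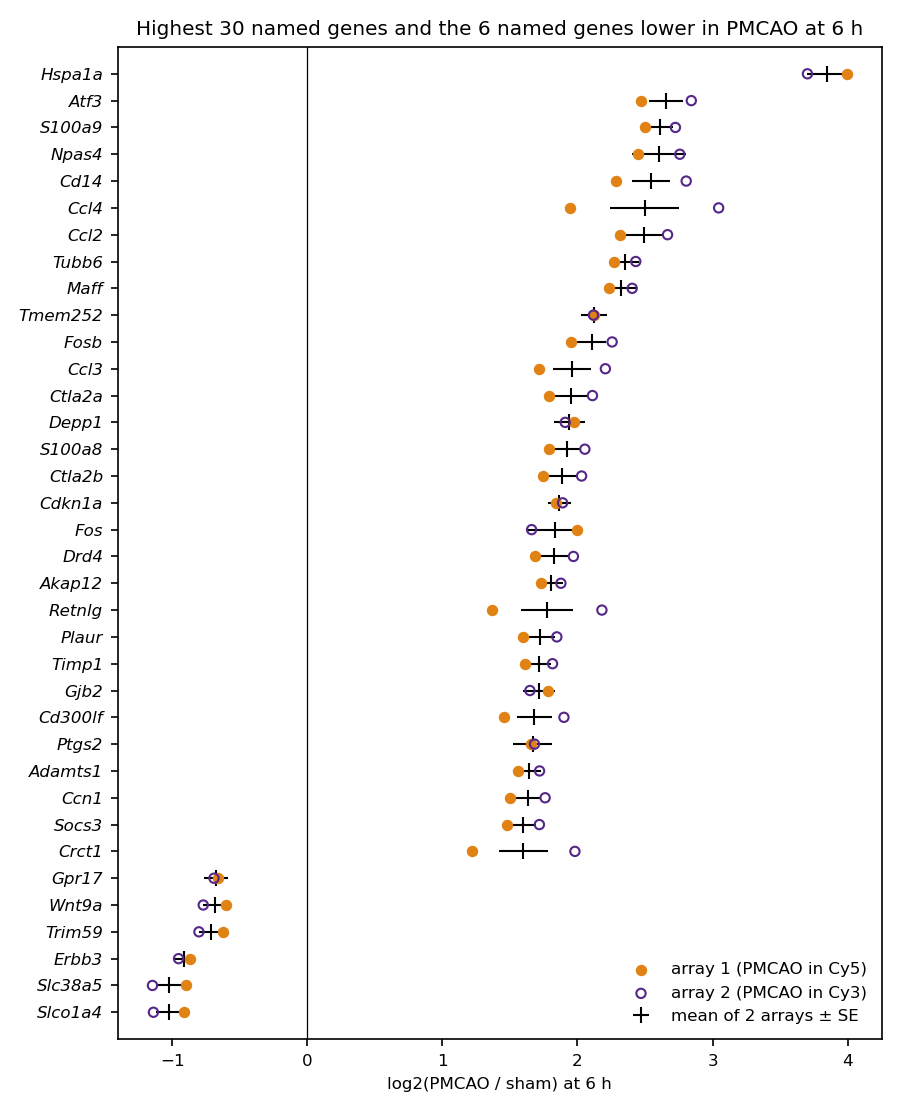
Log2(PMCAO / sham) at 6 h is on the x axis for the 30 highest named genes and the 6 lower named genes; filled circles are array 1, open circles array 2, and ticks with bars the mean ± SE of the model. For each of these genes both circles lie on the same side of 0, as the choice of the genes required. Ccl4 shows the widest gap, from 1.95 to 3.05.

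The largest single ratio at 6 h belonged to a heat shock gene, but few of its family moved. Hspa1a, the stress-inducible Hsp70, stood at 3.99 and 3.70 (3.85 ± 0.15, 14.4-fold, adjusted p = 0.00388). Its processed signal was 53095.8 and 60431.9 in PMCAO against 3121.52 and 4596.77 in sham. The near-identical Hspa1b may share its signal. Its 3 other probes gave 2.03 to 3.64. The small heat shock protein Hspb1 stood at 1.30 and 1.18 (1.24 ± 0.08), with a second probe at -0.01, and the co-chaperone Dnajb1 at 0.87 and 0.85 (0.86 ± 0.08), with a second probe at 0.79. These were the 3 higher members of 35, with 0 lower and a list median of 0.06. Bag3, a co-chaperone of Hsp70, was at 0.67 and 0.74 (adjusted p = 0.0732). The count of higher members was 2 without either 6 h array in turn and 6 without either 24 h array. The 3-unit heat shock element was searched by its name in the promoters above, as an exact match with no mismatch allowed. It lay before 1 of the 115 higher genes (0.87%, against 0.462% of tested and 0.514% of all genes), Vwce. An exact match thus lay before neither Hspa1a nor Hspb1. Elements with mismatched units or farther from the start were not searched, so these genes cannot be said to lack one. The promoters of Hspa1a and Hspb1 hold single cores of that element, and are shown with the core in capitals, each ending at the base before the start. Hspa1a lies at chr17:34972157-34972356 on the minus strand, with GAAGATTC beginning 104 bases before the start. Hspb1 lies at chr5:135887719-135887918 on the plus strand, with the cores GAAGTTTC and GAACCTTC.
Hspa1a: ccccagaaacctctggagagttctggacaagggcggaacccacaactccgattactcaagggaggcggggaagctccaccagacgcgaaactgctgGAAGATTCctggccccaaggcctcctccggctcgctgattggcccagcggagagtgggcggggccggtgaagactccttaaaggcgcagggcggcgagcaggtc
Hspb1: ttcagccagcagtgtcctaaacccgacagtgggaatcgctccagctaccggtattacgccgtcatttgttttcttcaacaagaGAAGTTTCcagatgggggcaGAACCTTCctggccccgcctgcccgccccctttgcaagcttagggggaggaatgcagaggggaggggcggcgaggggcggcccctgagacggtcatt

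Other stress programmes differed in how many members passed. Glucocorticoid response genes, which the stress hormone corticosterone induces in brain, had 7 of 20 higher and 0 lower, with a median of 0.65 and 15 higher at an unadjusted p below 0.05. Cdkn1a, the cell cycle inhibitor p21, stood at 1.84 and 1.89 (1.87 ± 0.08, adjusted p = 0.00388). Angptl4, a secreted inhibitor of lipoprotein lipase, stood at 1.69 and 1.33 (1.51 ± 0.14), Map3k6 at 1.17 ± 0.10 and the metabolic kinase Pdk4 at 0.79 ± 0.09, and Lcn2, Errfi1 and Nfkbia completed the 7. Cdkn1a was also among 4 higher of 29 p53 and apoptosis genes, with 0 lower, beside Pmaip1, which encodes Noxa (1.41 ± 0.09), Trp53inp1 (0.93 ± 0.08) and the inflammatory caspase Casp4 (0.93 ± 0.09). The p53 count was 2 without array 2 and 10 without either 24 h array, and the glucocorticoid count was then 15.

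Programmes tied to low oxygen, oxidants and misfolded protein had few calls on the lists used. These counts depend on which genes each list held. Atf3 (2.66 ± 0.13), a stress-induced gene on the AP-1 list, and Angptl4 (1.51 ± 0.14), on the glucocorticoid list, were on none of them. Of 38 hypoxia and glycolysis genes 1 was higher, the lactate transporter Slc16a3 (0.81 ± 0.09, adjusted p = 0.0264), and 0 were lower, with a median of 0.15. The glucose transporter Slc2a1 was at 1.00 and 0.55 (adjusted p = 0.296) and Adm, a vasodilator peptide, at 0.92 and 0.73 (adjusted p = 0.141). Of 21 Nrf2 targets and metallothioneins 1 was higher, the heme oxygenase Hmox1, at 1.25 and 1.18 (1.21 ± 0.08), and 0 lower, while Mt2 was at 1.34 and 0.60 (adjusted p = 0.427). Of 26 genes of the integrated stress response and ER chaperones 0 passed in limma, with 6 higher and 0 lower at an unadjusted p below 0.05. Sesn2 was at 0.44 and 0.46 (adjusted p = 0.175) and Sdf2l1 at 0.35 and 0.38 (adjusted p = 0.186). Without array 1 or without array 2 the hypoxia count was 0. The hypoxia, Nrf2 and stress response counts were 9, 5 and 6 without either 24 h array.

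Proteases and inhibitors that act on the extracellular matrix and in clotting had 8 of 24 higher and 0 lower. Plaur, the urokinase receptor, stood at 1.60 and 1.85 (1.72 ± 0.11), and its second probe gave 1.42. Timp1, a metalloproteinase inhibitor, stood at 1.61 and 1.82 (1.71 ± 0.09, adjusted p = 0.00451), with other probes at 0.96 and 0.99. Adamts1, a protease that cuts proteoglycans, stood at 1.56 and 1.72 (1.64 ± 0.09), with a second probe at 0.65. The plasminogen system was represented by the activator Plat (0.85 ± 0.09), protein C activation by its receptor Procr (0.89 ± 0.10) and thrombomodulin, Thbd (0.91 ± 0.09), and the Adamts family further by Adamts9 (1.13 ± 0.10). Other probes gave 0.32 to 0.74 for Plat and 0.23 to 0.40 for Adamts9. The list's median, 0.16, was far below its called members. Among 20 matrix proteins 3 were higher and 0 lower: Ccn1, a secreted protein of wound repair, at 1.50 and 1.76 (1.63 ± 0.10), and the basement membrane collagens Col4a1 (1.14 ± 0.09) and Col4a2 (0.75 ± 0.08), whose second probes gave 0.47 and 0.57. The protease count was 4 without array 2. The matrix protein count was 6, with 1 lower, without either 24 h array.

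All 25 tested genes of a reactive astrocyte list had a mean ratio above 0, 23 of them on both arrays, and 9 were higher: Cd14, Timp1, Ptgs2, Emp1 (1.28 ± 0.11), the sphingosine kinase Sphk1 (1.28 ± 0.09), Hspb1, Lcn2, Osmr and the asparaginase Aspg (0.81 ± 0.08, with a second probe at 0.19). The median was 0.53. This list overlaps those of inflammation above. General astrocyte markers had 0 of 14 higher and 0 lower in limma (1 and 0 at an unadjusted p below 0.05), and Gfap, the astrocyte filament, was at 0.48 and 0.14 (adjusted p = 0.552) and the aldolase Aldoc at -0.13 and -0.32 (adjusted p = 0.580). Of 19 complement and acute phase genes 2 were higher, Lcn2 and the hemoglobin-binding haptoglobin, Hp (1.08 ± 0.12), and 0 lower. Without array 2 the complement count was 1. The reactive astrocyte list had 17 higher genes without either 24 h array.

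Endothelial activation genes had 4 of 20 higher and 0 lower: Lcn2, Ch25h, which makes an oxysterol (1.20 ± 0.09), Angpt2, a ligand that loosens vessels (1.01 ± 0.10), and Icam1. Other members lay below 0, and 4 of them were lower at an unadjusted p below 0.05, among them the angiopoietin receptor Tek at -0.36 and -0.68 (adjusted p = 0.222). The count of higher members was 2 without array 2 and 6, with 4 lower, without either 24 h array. Of 19 tubulin and actin genes 3 were higher and 0 lower. Tubb6, a beta tubulin, stood at 2.27 and 2.43 (2.35 ± 0.10) on its brighter probe, while its second probe gave 0.05. Tuba1c, an alpha tubulin with near-identical relatives, stood at 1.37 ± 0.16 and the filamin Flnc at 0.90 ± 0.09, with its 3 other probes at 0.01 to 0.26. The tubulin and actin count was 7 without either 24 h array.

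**Figure D3:**
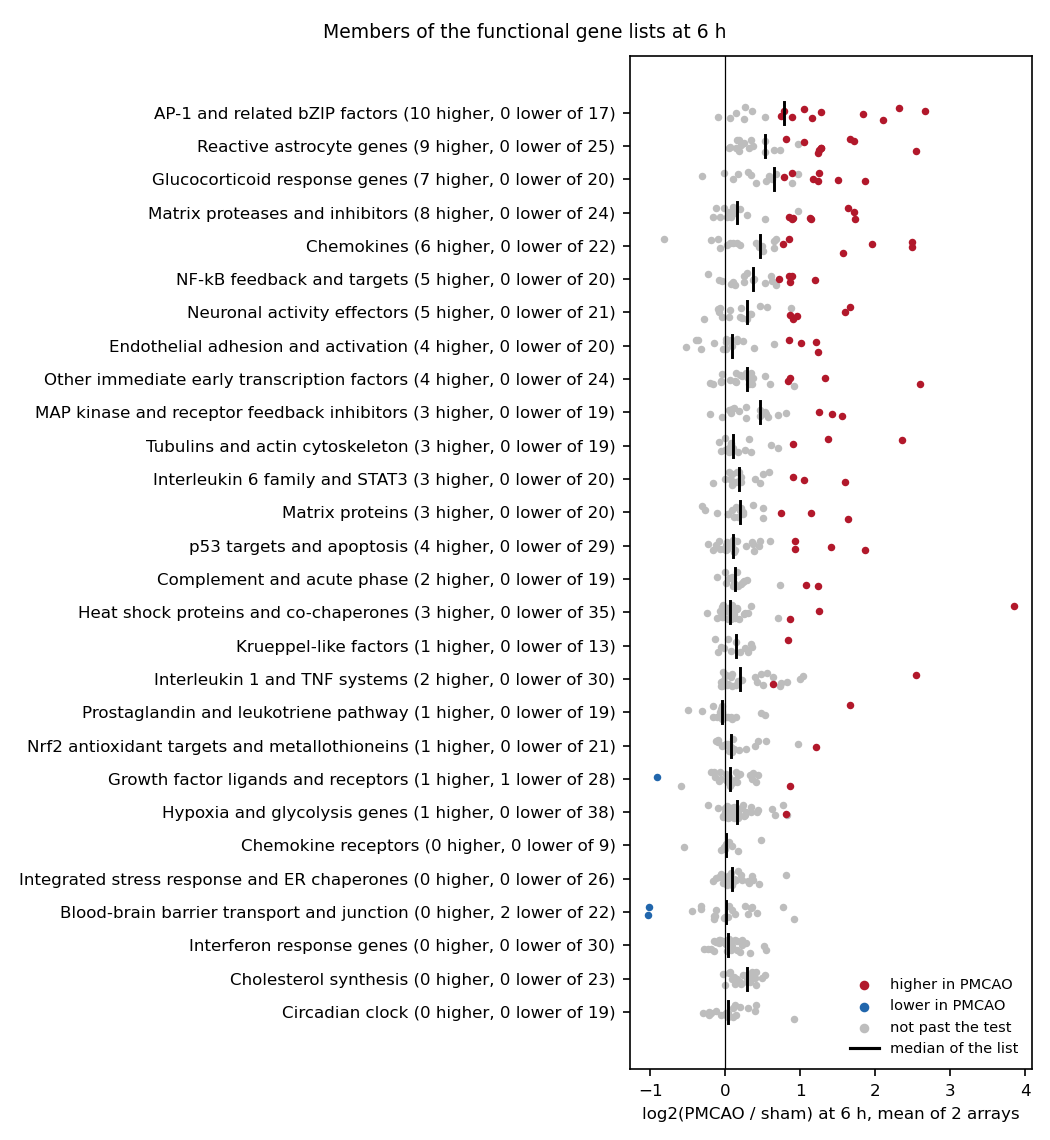
Log2(PMCAO / sham) at 6 h, the mean of the 2 arrays, is on the x axis for each tested member of the functional gene lists in rows; red points passed the test as higher, blue as lower, grey did not pass, and black ticks are list medians. The list of AP-1 and related leucine zipper factors has the highest median, 0.79, and the blood-brain barrier list holds the 2 lower transporters near -1.

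The 7 lower genes were led by transporters of the blood-brain barrier. Slco1a4, an organic anion transporter of brain endothelium, stood at -0.91 and -1.14 (-1.03 ± 0.10, adjusted p = 0.0170), with processed signals of 462.905 and 477.879 in PMCAO against 1041.64 and 1160.27 in sham. Its probe lies on chromosome 6 at 141858334 to 141858393 (mm7). Slc38a5, a glutamine transporter, stood at -0.90 and -1.15 (-1.02 ± 0.10, adjusted p = 0.0168), with its probe on chromosome X at 6713250 to 6713309. On both arrays each signal in PMCAO was below either signal in sham for this pair. They were the lower members of 22 blood-brain barrier genes, of which 0 were higher. Other members of that list spread to both sides: the efflux pump Abcb1a was at -0.21 and -0.44 (adjusted p = 0.366), and Cdh5, the cadherin of endothelial junctions, at 0.96 and 0.88 (adjusted p = 0.0657). Of 16 endothelial markers, which also hold Slco1a4, 1 was lower and 0 higher, 11 were below 0 on both arrays, and the median was -0.19. Their summed processed signal was 36966 and 40321 in PMCAO against 42554 and 43089 in sham. The part of that shift in the values of the transporters was not tested. Without array 2 neither transporter passed, and without either 24 h array 6 barrier genes were higher and 5 lower, and 1 endothelial marker was higher and 6 lower.

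The other lower genes were receptors and signalling proteins. Erbb3, a neuregulin receptor, stood at -0.87 and -0.95 (-0.91 ± 0.08, adjusted p = 0.0152) on the brightest of its 5 probes, while the rest lay between -0.09 and 0.02. It was the 1 lower member of 28 growth factor ligands and receptors, and Inhba the 1 higher. Trim59 stood at -0.62 and -0.80 (-0.71 ± 0.09), with a second probe at -0.28, and the Wnt ligand Wnt9a at -0.60 and -0.77 (-0.69 ± 0.09), with a second probe at -0.08. Gpr17, a receptor of maturing oligodendrocyte precursors, stood at -0.66 and -0.69 (-0.68 ± 0.09), with a second probe at -0.11. The expressed sequence AI593442 stood at -0.65 and -0.59 (-0.62 ± 0.08), and its other 2 probes gave -0.37 and -0.34. Gpr17 was the 1 lower gene of 12 oligodendrocyte precursor markers, with 0 higher. Their summed processed signal was 241592 and 240099 in PMCAO against 252099 and 279073 in sham. Without array 1 or without array 2 neither Erbb3, Gpr17 nor Inhba passed. Leaving out either 24 h array gave 6 higher and 2 lower growth factor genes and 3 lower precursor markers.

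Markers of striatal projection neurons, the main neurons of the core territory of this artery, had 0 of 15 past limma's test (with p unadjusted at 0.05, 0 higher and 5 lower), and 14 of the 15 had means below 0. The adenosine receptor Adora2a was at -0.79 and -0.75 (adjusted p = 0.151). The list's median was -0.17, and its summed processed signal was 123312 and 125686 in PMCAO against 135890 and 140120 in sham. Red blood cell genes were the other way round, with 0 of 4 past the test (3 and 0 at an unadjusted p below 0.05) and Hba-a1, a hemoglobin chain with a near-identical copy, at 0.46 and 0.52 and Hbb-bt, the partner chain, at 0.38 and 0.58. Their summed signal was 60877 and 70769 against 47943 and 46079. In the remaining marker lists 0 genes passed: at an unadjusted p below 0.05 the numbers higher and lower were 1 and 1 of 14 for oligodendrocytes, 1 and 3 of 14 for pericytes, smooth muscle and meninges, and 0 and 1 of 11 for choroid plexus and ependyma. Their members of smallest p were Opalin (0.38 and 0.33) and Aspa (-0.14 and -0.39), the potassium channel gene Kcnj8 (0.47 and 0.41) and Cspg4 (-0.25 and -0.35), and the cilia factor Foxj1 (-0.32 and -0.26) and Otx2 (-0.12 and -0.21), with adjusted p-values from 0.165 to 0.745. Leaving out either 24 h array gave 6 lower striatal markers, 3 higher red blood cell genes, and 1 higher and 2 lower markers of pericytes, smooth muscle and meninges.

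**Figure D4:**
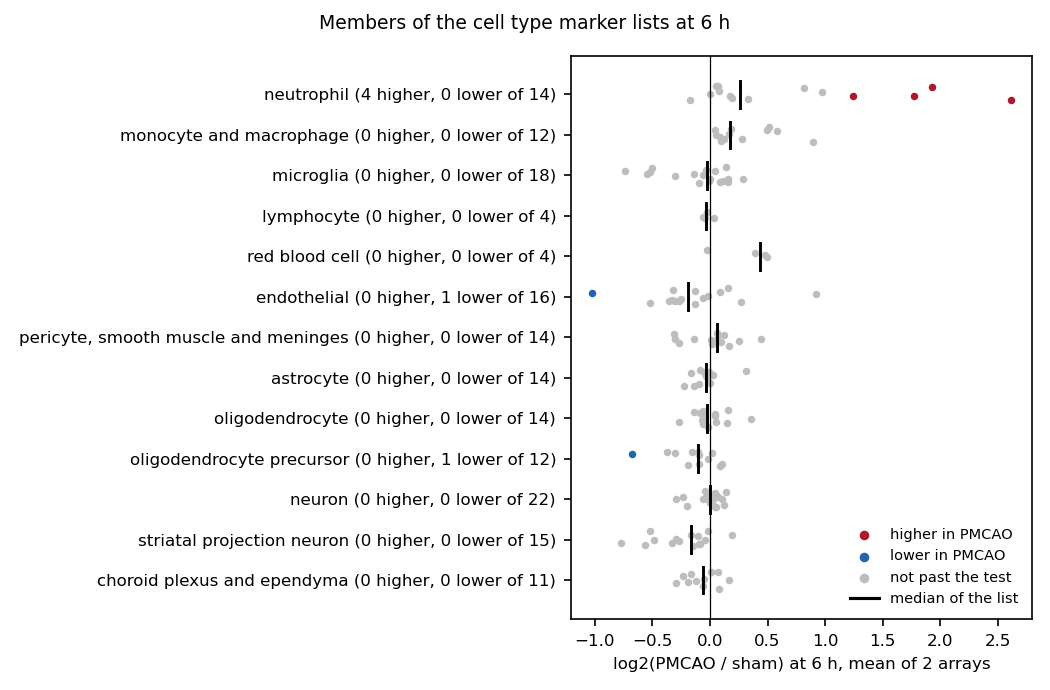
Log2(PMCAO / sham) at 6 h, the mean of the 2 arrays, is on the x axis for each tested marker of 13 cell types in rows; colours and ticks are as for the functional lists. The 4 higher neutrophil markers lie between 1.24 and 2.61, and the 22 neuron markers gather around 0.

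Some pathways gave no call. Interferon response genes had 0 of 30 past limma's test (with p unadjusted at 0.05, 4 higher and 1 lower), with Rsad2 at 0.54 and 0.54 (adjusted p = 0.0626) and Irgm1 at 0.47 and 0.56 (adjusted p = 0.0852). Cholesterol synthesis genes had 0 of 23 past the test (10 and 0 at an unadjusted p below 0.05), 19 of them were above 0 on both arrays, and the median was 0.29. Among them Mvd was at 0.49 and 0.56 (adjusted p = 0.0959) and Hmgcs1 at 0.38 and 0.41 (adjusted p = 0.150). Circadian clock genes had 0 of 19 past the test (3 and 1 at an unadjusted p below 0.05), with Nfil3 at 1.10 and 0.72 (adjusted p = 0.0784) and Nr1d1 at 0.45 and 0.35 (adjusted p = 0.178). Of 19 prostaglandin and leukotriene genes 1 was higher, Ptgs2, and 0 lower, with the synthase Ptges at 0.46 and 0.61 (adjusted p = 0.0871). Leaving out either 24 h array gave 10 higher cholesterol genes, 3 higher interferon genes, 3 higher and 1 lower clock genes, and 3 higher and 2 lower prostaglandin genes. Without array 2 the clock list had 1 higher member.

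Of the 156 higher genes 74 belonged to at least 1 list and 82 to none. Among the 30 highest, those in no list included Tmem252, a membrane protein, at 2.13 and 2.12 (2.12 ± 0.10), and Depp1, a FoxO target, at 1.97 and 1.91 (1.94 ± 0.12). The cathepsin inhibitors Ctla2a and Ctla2b, which are close copies, stood at 1.79 and 2.11 (1.95 ± 0.12) and at 1.74 and 2.03 (1.89 ± 0.10), and each may share the other's signal. The dopamine receptor gene Drd4 stood at 1.68 and 1.97 (1.83 ± 0.11) and the gap junction protein Gjb2 at 1.78 and 1.65 (1.71 ± 0.12), but the second probes of this pair gave 0.42 and 0.39. Akap12, a scaffold for protein kinase A, stood at 1.73 and 1.88 (1.80 ± 0.09), and Crct1 at 1.22 and 1.98 (1.60 ± 0.18). Of the 60 higher genes with several probes, 52 had all other probes above 0, 8 had all of them at 1 or more, and 8 had one at or below 0.

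The rest of the genes at least 2-fold higher outside the lists covered several functions. Genes of the cell cycle, chromatin and transcription were Cdt1, a DNA replication licensing factor (1.32 ± 0.09), Hmgb2 (1.09 ± 0.14) and Aff1 (1.11 ± 0.09). The T-box transcription factor Tbx21 stood at 1.04 ± 0.13. Signalling genes were the small GTPase Rhoj (1.27 ± 0.09), the ligand Wnt10a (1.05 ± 0.09), the orphan receptor Gprc5c (1.16 ± 0.11), the ubiquitin ligase Rnf125 (1.24 ± 0.10), Phlda2 (1.29 ± 0.16), Tcim (1.45 ± 0.13), Mlf1 (1.01 ± 0.09) and Ifrd1 (1.21 ± 0.11). Enzymes and secreted proteins were adenosine deaminase, Ada (1.21 ± 0.10), the glycosyltransferase Galnt15 (1.06 ± 0.09), the protease Htra4 (1.05 ± 0.13) and Crispld2 (1.02 ± 0.11). Efcab6 (1.24 ± 0.08), Crybg2 (1.07 ± 0.09) and Tma16 (1.11 ± 0.09) completed the named genes. Other probes of Aff1, Efcab6, Gprc5c and Tma16 did not exceed 0.15. Other probes gave 0.09 to 1.02 for Rhoj, 0.48 for Phlda2, 0.89 for Hmgb2, 0.98 for Tcim, 1.06 for Ifrd1 and 1.17 for Rnf125. Phlda2 was well above background in sham on 1 array only. It lost its call in limma with the mean over probes (adjusted p = 0.0587). Among the higher genes with clone names only, 1200016E24Rik stood at 2.18 and 1.99 (2.09 ± 0.09) and C330006P03Rik at 1.18 and 1.10 (1.14 ± 0.08).

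The 5 genes with the largest opposite ratios on the arrays had adjusted p-values above the threshold. Aldoa, a glycolytic enzyme, was at 0.79 and -0.59, the autophagy gene Gabarapl1 at 0.56 and -0.55, the mitochondrial carrier Slc25a4 at 0.52 and -0.53, the ribosomal protein Rps23 at 0.53 and -0.52, and Calm2, a calmodulin gene, at 0.48 and -0.61. Each was higher in whichever sample carried Cy5. Over all genes, the array difference divided by 2 had a median size of 0.06. Dye, noise and any difference between the samples cannot be told apart in the 6 h difference alone. At 24 h each of the 5 genes was again higher in whichever sample carried Cy5. Arrays 1 and 2 of that time gave 0.89 and -0.76 for Aldoa and 0.66 and -1.04 for Gabarapl1. They gave 0.46 and -0.54 for Slc25a4, 0.87 and -0.53 for Rps23, and 0.41 and -1.17 for Calm2. The cause of this repeat was not tested.

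Set against the response at 24 h, which 2 other dye-swapped arrays of PMCAO and sham mice measured, most genes of 6 h kept their direction. At 24 h 1499 genes were higher (7.84%) and 864 lower (4.52%). Of the 156 genes higher at 6 h, 137 were higher at 24 h, 16 did not pass there and 3 were lower. The test of the difference itself called 42 larger at 24 h, 9 smaller, and gave no call for 105, against 246 larger (1.29%) and 57 smaller (0.298%) over all genes. The genes were selected on their 6 h values, so a fall towards 0 in some of them is built into the choice.

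The 9 genes with a smaller response at 24 h included Npas4, Egr4, Bdnf and Fosb, which neuronal activity induces. Npas4 went from 2.60 to 0.40, with 24 h arrays at 0.00 and 0.81 (difference -2.20 ± 0.28, adjusted p = 0.0342). Egr4 went from 1.33 to -0.55 (difference -1.89, adjusted p = 0.00843) and Bdnf from 0.95 to -0.40 (difference -1.35, adjusted p = 0.0138), and both were lower in PMCAO at 24 h. Fosb went from 2.10 to 0.96 (adjusted p = 0.0360), the neuropeptide Nts from 0.91 to -0.09 (adjusted p = 0.0240), the GTPase Rem2 from 0.91 to 0.02 (adjusted p = 0.0431), the co-chaperone Dnajb1 from 0.86 to 0.07 (adjusted p = 0.0427) and Mest from 0.79 to -0.31 (adjusted p = 0.0262). C330006P03Rik had the widest swing, from 1.14 to -1.73 (difference -2.87, adjusted p = 0.00279), and was the third gene higher at 6 h and lower at 24 h. Hspa1a, Atf3, Fos and Ptgs2 gave no call on the difference, at -0.46, 0.56, -0.26 and -0.24.

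The largest gains among the 42 genes with a larger response at 24 h were in the neutrophil markers S100a8, from 1.92 to 5.27 (difference 3.35, adjusted p = 0.00279), S100a9, from 2.61 to 5.84 (3.22) and Retnlg, from 1.78 to 4.35 (2.58), in Cxcl1, from 1.57 to 4.26 (2.69), and in Adam8, from 0.86 to 3.20 (2.34). All 7 lower genes were also lower at 24 h, and none had a call on the difference. Slc38a5 went from -1.02 to -1.89 (adjusted p of the difference = 0.0519), and Slco1a4 from -1.03 to -0.62 (adjusted p = 0.254).

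**Figure D5:**
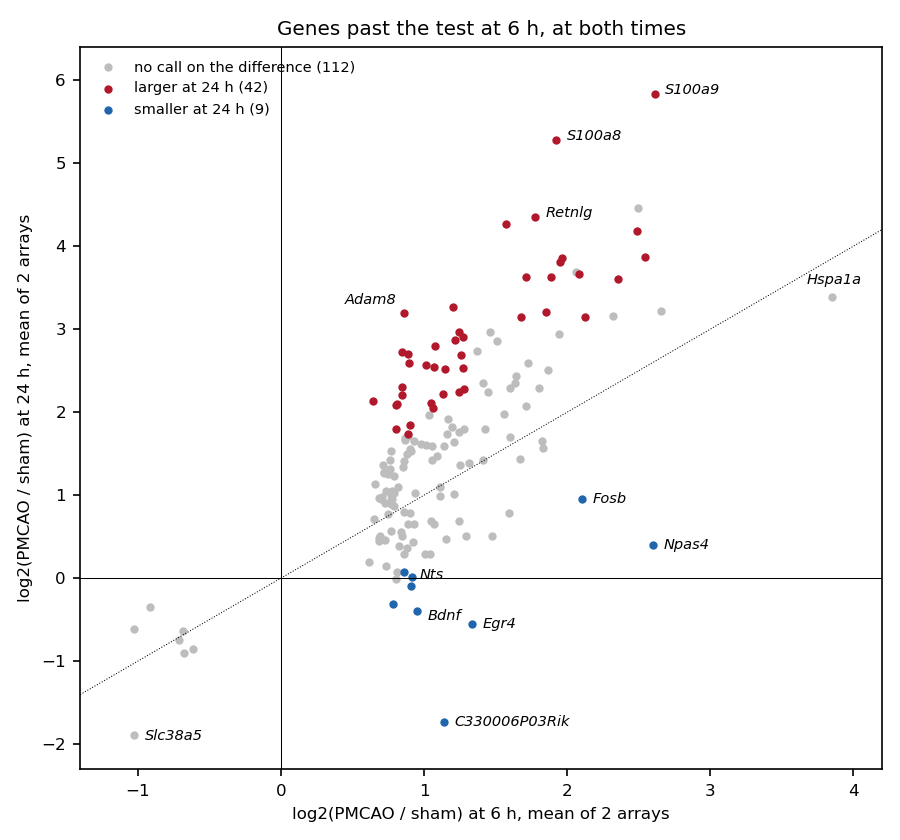
Each point is a gene past the test at 6 h, with its mean log2(PMCAO / sham) of 2 arrays at 6 h on the x axis and at 24 h on the y axis; red points were larger at 24 h by the test of the difference, blue points smaller, and grey points had no call. The 42 red points lie above the dotted line of equality and the 9 blue points below it, with S100a9 and S100a8 at the top and Npas4, Egr4 and C330006P03Rik at the lower right.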

How the data were processed

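RNA of PMCAO and sham mouse brain was hybridised to 2 dye-swapped two-colour arrays per time. The deposited scanner output gives, for each spot, an intensity per channel and a log10 ratio of red over green. Its software, per the file headers, was Agilent Feature Extraction (version 9.5.3.1), which subtracted background and normalised dyes to make the processed signals. The deposited series table holds other values, whose size equalled the processed Cy5 over Cy3 ratio within 0.00501 for 100% of probes. Its column medians were -0.96 and 0.97 at 6 h and -0.92 and 0.96 at 24 h, and what its sign stands for, and any further centring, stayed unknown. Probe coordinates carry the build mm7 in the files.

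Here, mean signals were corrected in limma 3.58.1 (R 4.3.3) by normexp against the local background median, with offset 50, which draws ratios of dim spots towards 0. Loess within each array followed, with control spots at weight 0. Outlier spots (112 to 142 per array) were dropped and saturated spots (0 to 2) kept. Ratios were turned to PMCAO over sham by the dyes in the labels, spots of a probe averaged, and the brightest probe taken per gene. A gene was kept if any of the 4 RNA groups had it well above background on both its arrays. Of 41174 probes, 22951 were named by accession, 6659 by symbol and 3109 by older symbol in RefSeq (GRCm38.p6), and 8455 kept the name in the files. A gene not above background in a group has only a bound, computed after Aquantile between arrays.

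One fit of all 4 arrays gave a coefficient per time and their difference, with 2 residual and 3.53 prior degrees of freedom, and moderated tests adjusted by Benjamini-Hochberg at 0.05. No batch could be tested, as 1 slide and 1 scan held the 4 arrays, whose number limits the precision. On simulated arrays of 19117 genes for the 6 h comparison, the fit recovered 27 of 50 genes set 2-fold higher and 29 of 50 set 2-fold lower, and 47 and 45 of 50 set 4-fold higher and lower, with 0 unchanged genes called.

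Named genes were the 30 highest and all lower genes past the test with both arrays in 1 direction (clone names apart), every other gene at least 2-fold, list members past the test or the 2 of smallest p where none passed, and 5 genes of largest opposite ratios. A few items are not reported here. Genes named beside these were chosen after their values were seen. Members, lists and tests were chosen with earlier results of these data known, so list counts are descriptions. Motifs were counted with pandas 2.3.3 under Python 3.11.15, and plots drawn with matplotlib 3.10.9. Alternatives covered background correction, normalisation, filters, probe choice, arrays used, the replicate block and each array left out.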

Additional observations from a re-analysis of the deposited data

Results flagged for a closer look

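Among the genes past the 6 h test, 48 named here had a response at 24 h that differed from that at 6 h by limma's test of the difference, with an adjusted p between 0.00279 and 0.0497. Values in parentheses are the log2 response at 24 h minus that at 6 h, from 2 arrays at each time.

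The 9 genes with a smaller response at 24 h were C330006P03Rik (-2.87), Npas4 (-2.20), Egr4 (-1.89), Bdnf (-1.35), Fosb (-1.15), Mest (-1.10), Nts (-1.0), Rem2 (-0.89) and Dnajb1 (-0.79). For each of them both 24 h arrays lay below both 6 h arrays, which a test on these same arrays favours.

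The 39 of these with a larger response at 24 h were led by S100a8 (3.35), S100a9 (3.22), Cxcl1 (2.69), Retnlg (2.58), Adam8 (2.34) and Ch25h (2.06). A second group comprised Timp1 (1.91), Ccl3 (1.90), Ccl9 (1.88), Ctla2a (1.86), Procr (1.81), Ctla2b (1.75), Lcn2 (1.72), Hp (1.72), Flnc (1.69), Ccl2 (1.69), Hmox1 (1.65), Cebpd (1.63), 1200016E24Rik (1.58) and Angpt2 (1.56). Smaller gains were found for Tlr2 (1.49), Srgn (1.47), Cd300lf (1.47), Pirb (1.46), Icam1 (1.36), Cd14 (1.33), Bcl2a1b (1.28), Aspg (1.27), Rhoj (1.26) and Tubb6 (1.25). The least gains among called genes were those of Adamts9 (1.09), Osmr (1.06), Tmem252 (1.03), Emp1 (1.00), Hspb1 (1.00), Slc16a3 (0.99), Galnt15 (0.99), Il4ra (0.94) and Prok2 (0.84). For each of these genes both 24 h arrays lay above both 6 h arrays, which the choice by that test likewise favours.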

How the results depend on the processing

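Median centring in place of loess was the only alternative that left no call: 0 genes higher, 0 lower and 0 with a difference between the times in limma (62, 1 and 65 at an unadjusted p below 0.05), and 43 genes at least 2-fold on both arrays. Without background correction 14 genes were lower, and with a normexp offset of 16, 3. The scanner software's processed signals gave 22 lower, 232 at least 2-fold on both arrays and 62 differing between the times, while values of the deposited series table gave 22 lower, 234 and 58. Requiring all channels above background left 178 differing. The 6 h arrays fitted alone gave 940 higher and 354 lower. The shared sample number as a replicate block gave 1131 higher, 571 lower and 3215 differing; that number coincides with the dye orientation, and the deviations of same-numbered arrays correlated at 0.718 over genes, but 2 pairs do not settle a pairing. Leaving out each array in turn gave 76 to 940 higher genes, 0 to 354 lower and 181 to 2914 differing, and a dye effect then no longer cancels at that time. Other counts over all genes stayed within 1.5 times of the main one, and the cause of these moves was not tested. List counts moved further under some settings, beside those in the report. Processed signals gave 8 higher neutrophil markers, 3 hypoxia genes and 0 Krueppel-like factors, and the series table gave 5 of the interleukin 6 family. The mean over probes gave 3 Nrf2 and 2 hypoxia genes, no filter gave 2 hypoxia genes, and no background correction gave 2 prostaglandin genes. No precursor marker was lower with offset 16, processed signals or the series table. Lists with no call in a direction gained 1 higher gene among chemokine receptors and monocyte markers (processed signals) and among barrier, clock and endothelial genes (mean over probes), and 1 lower among prostaglandin genes (processed signals) and microglia markers (no background correction).

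Of the 84 named genes past the test none changed direction under any alternative. All 84 lost their call under median centring, 8 with offset 16, 4 each with the processed signals and the series table, 6 with the mean over probes, 6 without array 1 and 19 without array 2. Averaging probes lowered Tubb6 to 1.20 and Drd4 to 1.13. Processed signals raised S100a5 to 5.37, Phlda2 to 3.74 and Retnlg to 3.35. Genes of opposite sign on the arrays followed the array that was kept: without array 1, Aldoa stood at -0.59, Gabarapl1 at -0.55, Slc25a4 at -0.53, Rps23 at -0.52 and Calm2 at -0.61, against Aldoa 0.79, Gabarapl1 0.56, Rps23 0.53, Slc25a4 0.52 and Calm2 0.48 without array 2. Slc25a4 stood at 9.1e-05 without background correction and at 0.11 under median centring, where Calm2 stood at 0.064, and Gabarapl1 at -0.0078 with processed signals and -0.0058 in the series table. The slide could not be tried as a block, since all arrays shared it.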
